A study of Mus musculus with 4 samples.

Results

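The genes described here are Fabp5, which encodes the epidermal fatty acid-binding protein, its relatives Fabp3, Fabp4, Fabp7 and Crabp2, and the lipid-sensing nuclear receptor genes Ppara, Ppard, Pparg, Rxra and Rxrb. The set was chosen by the values of Fabp5 in the Mbd4 KO and control arrays, to which its relatives and receptors were added for their function. Clusters were taken by symbol: every transcript cluster (the probes the array groups as a single transcription unit) that the platform's gene table pairs with a listed symbol. This gave 12 clusters for the 10 genes, of 21789 clusters that carry exactly 1 symbol. Fabp5 and Fabp3 have 2 clusters each, the other genes have 1, and 0 of the 12 also carry the symbol of another gene. The RNA was that of the mouse B lymphoma line CH12.F3, with 2 arrays of Mbd4 KO cells and 2 arrays of control cells. Both groups were kept in medium with 6% fetal calf serum and received IL-4 at 5 ng/ml, TGF-beta at 0.2 ng/ml and CD40 ligand at 25% of the volume, the signals for IgA switching, 24 hours before RNA was taken. Mbd4, deleted in the KO cells, encodes a methyl-CpG-binding DNA repair enzyme, a glycosylase for thymine or uracil that sits opposite guanine. The design text calls the 2 samples of each group independent, but the labels do not say whether they were separate cultures or separate knockout clones. P-values therefore reflect array-to-array spread alone, which could be technical, and a clonal difference and the loss of Mbd4 cannot be told apart.

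Fatty acid-binding proteins are small cytosolic carriers that hold a fatty acid in a barrel-shaped pocket. FABP5 can carry fatty acids, and in some cells retinoic acid, to the nucleus and hand them to PPAR-delta, while CRABP2 delivers retinoic acid to the retinoic acid receptors. PPARs bind DNA as heterodimers with RXRs and switch on genes of fatty acid uptake, storage and oxidation.

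The values are log2 RMA values, and a difference is the mean of the Mbd4 KO arrays minus that of the control arrays. The medians over all clusters were 6.96 and 6.97 on the Mbd4 KO arrays and 6.94 and 6.98 on the control arrays. Mbd4 was at 6.47 and 6.49 in Mbd4 KO cells, against 8.74 and 8.77 in control cells, so the arrays rank as their labels say. Whether its probes lie inside the deleted part was not tested. The B cell markers measured (Cd79a, Cd79b, Ms4a1, Pax5, Ebf1, Blnk and Cd22) were all above the array median on the 4 arrays. Their mean level was between 11.32 and 11.37 on the Mbd4 KO arrays and between 11.33 and 11.36 on the control arrays. Single markers moved both ways. Without overlap, 2 of the 7 were higher and 3 lower in Mbd4 KO cells, beside 26.7% and 18.3% of all clusters. The largest differences were those of Cd22 (0.44, limma adjusted p = 0.0843) and Blnk (-0.28, limma adjusted p = 0.15). Of 5 adipocyte markers measured, 4 were below the median on every array, as were 6 of 9 macrophage markers and 4 of 6 T cell markers. Cd68, Mpeg1 and Csf1r of the macrophage list and Cd28 of the T cell list were above it on all 4 arrays. Of the 9 macrophage markers, 2 were lower in Mbd4 KO cells without overlap, Cd68 (-0.25) and Mpeg1 (-0.19), beside 18.3% of all clusters. Lyz2, Itgam and Fcgr1 were higher without overlap, beside 26.7% of all clusters. These 3 were below the array median on all 4 arrays. The mean level of the adipocyte list was 6.17 to 6.32 in Mbd4 KO cells and 6.18 to 6.27 in control cells. For the macrophage list it was 7.09 to 7.11 in Mbd4 KO cells and 7.08 to 7.10 in control cells, and for the T cell list 7.06 to 7.07 in Mbd4 KO cells and 7.01 in control cells. Probes of different clusters bind with different strength, so levels are not ranked between genes here.

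Fabp5 was lower in Mbd4 KO cells in both of its clusters, by about a factor of 3. In the cluster whose ID number lies among chromosome 3 genes, where Fabp5 is annotated, the values were 8.21 and 8.20 in Mbd4 KO cells, against 9.95 and 9.86 in control cells. The Mbd4 KO arrays were both below the control arrays, and any Mbd4 KO array was below any control array by between 1.65 and 1.74 on the log2 scale. The means were 8.21 ± 0.0052 in Mbd4 KO cells and 9.90 ± 0.063 in control cells (SD, n = 2 each), a log2 difference of -1.69 with a moderated SE of 0.070, or 3.24-fold lower. In the other cluster the values were 8.69 and 8.76 in Mbd4 KO cells, against 10.40 and 10.21 in control cells. Here too the groups did not overlap, with means of 8.72 ± 0.046 in Mbd4 KO cells and 10.31 ± 0.13 in control cells (SD, n = 2 each). Mbd4 KO cells were thus lower by a log2 difference of -1.58 with an SE of 0.086, or 2.995-fold. All 4 arrays placed Fabp5 above the array median in both clusters, so the transcript was lower in Mbd4 KO cells but its signal stayed in the upper part of the array. Because the RNA is from bulk cells, fewer cells with Fabp5 transcripts and less transcript per cell cannot be told apart.

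Among all 21789 differences ordered from the most negative, the chromosome 3 cluster ranked 19 and the other 21. Fabp5 was singled out with its difference between these groups known, so this difference is a description and has no p-value here.

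**Figure D1:**
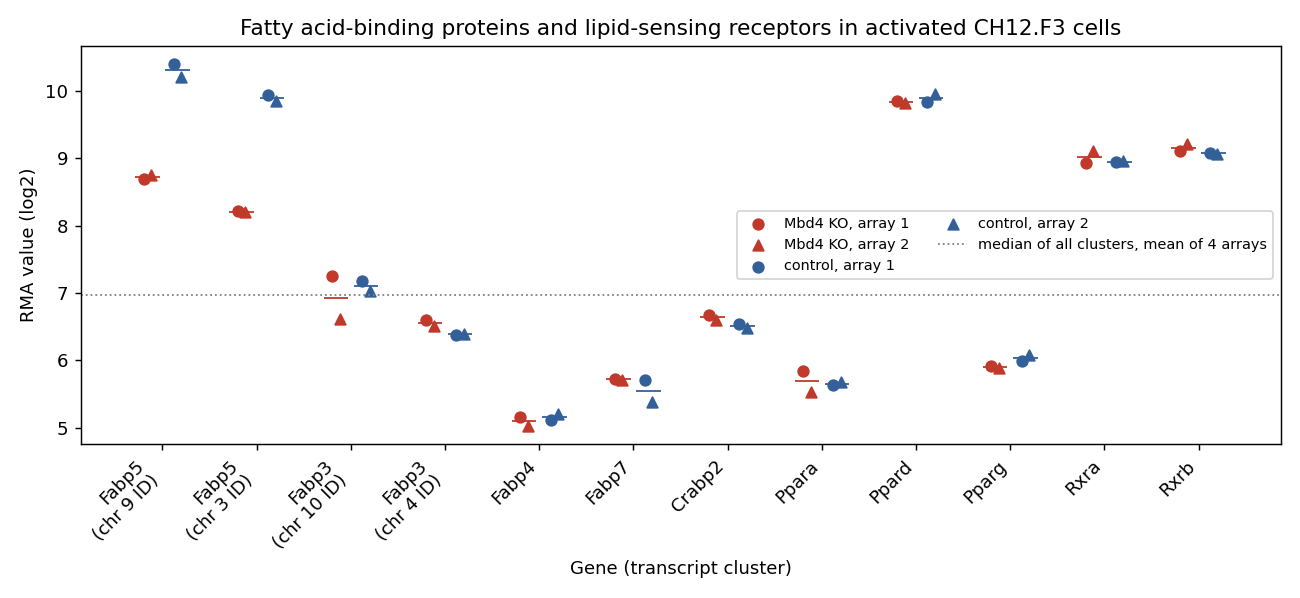
Log2 RMA values of the 12 clusters on each array, Mbd4 KO left of control for each gene, with short lines at the group means; "chr ID" names the chromosome of the genes with neighbouring cluster numbers. The Fabp5 values lie between 8.20 and 8.76 in Mbd4 KO cells and between 9.86 and 10.40 in control cells, whereas the groups of the other clusters lie close together.

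The 2 Fabp5 clusters carry ID numbers from different parts of the genome. For every member cluster 9 or 10 of the 10 clusters with the nearest numbers belonged to genes of a single chromosome. For the first Fabp5 cluster all 10 belonged to chromosome 3. For the other all 10 belonged to chromosome 9, with Trcg1 and Rpp25 on either side. RefSeq (GRCm38.p6) places 5 pseudogenes between these genes, 0 of them under a Fabp name. The names they carry do not tell which gene each copies, so this count cannot show whether a Fabp5 copy lies there. The platform table pairs the cluster with Fabp5 transcripts. The gap between the clusters (chromosome 3 minus chromosome 9 cluster) was -0.48 and -0.55 in Mbd4 KO cells, against -0.45 and -0.36 in control cells, and so shifted little beside the differences of -1.69 and -1.58. Whether the second cluster reads Fabp5 itself or a near copy was not tested. Fabp3 shows the same arrangement, since its second cluster is numbered among chromosome 10 genes, between Hsp90b1 and Stab2, where RefSeq annotates the pseudogene Fabp3-ps1.

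Over all 12 clusters, 2 passed the table-wide limma threshold (Benjamini-Hochberg adjusted p under 0.05) as lower, both of Fabp5, where 0.955% of all clusters were called lower. None passed as higher, where 0.431% of all clusters did. An unadjusted limma p under 0.05 was found for 3 of the 12, 2 of them Fabp5 clusters, and for 3013 of all 21789 clusters. The groups did not overlap in 7 clusters, 4 with Mbd4 KO above control and 3 with Mbd4 KO below, against 26.7% and 18.3% of all clusters. These counts, those of Fabp5 above all, come from the comparison with which the genes were chosen, so they are no test of it and nothing is read from them. The 10 clusters other than those of Fabp5 differed by between -0.17 and 0.18, at most 1.13-fold, with 6 above zero and 4 below. The median of these 10 differences was 0.05, beside 0.02 over all clusters tested.

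Of the other binding proteins, Fabp3, the heart and muscle form, gave clusters that differed in sign, and the sign of its chromosome 10 cluster turned with a single array. Its chromosome 4 cluster, where the gene lies, was at 6.59 and 6.51 in Mbd4 KO cells, against 6.38 and 6.39 in control cells, a difference of 0.17 (SE 0.069) without overlap. The chromosome 10 cluster was at 7.25 and 6.61 in Mbd4 KO cells, against 7.17 and 7.03 in control cells. Its Mbd4 KO arrays lay on both sides of the control arrays, and its SD of 0.45 in Mbd4 KO cells was the largest of any member cluster, so the difference of -0.17 (SE 0.20) is smaller than its own error. It was 0.15 without Mbd4 KO replicate 2 and -0.49 without Mbd4 KO replicate 1.

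Fabp4, the adipocyte and macrophage form, was at 5.16 and 5.02 in Mbd4 KO cells, against 5.11 and 5.20 in control cells, with overlapping groups and a difference of -0.06 (SE 0.081), which was 0.0076 without Mbd4 KO replicate 2. Fabp7, the brain form, was at 5.73 and 5.71 in Mbd4 KO cells, against 5.71 and 5.38 in control cells. Control array 1 of Fabp7 nearly met the Mbd4 KO values, so its difference of 0.18 (SE 0.12) rests on the other control array, and it was 0.01 without control replicate 2. Crabp2, the retinoic acid carrier, was at 6.68 and 6.60 in Mbd4 KO cells, against 6.53 and 6.47 in control cells, a difference of 0.14 (SE 0.070) without overlap. Fabp4, Fabp7, Crabp2 and the chromosome 4 cluster of Fabp3 were below the array median on all 4 arrays, where a difference can be hidden, since signal over background could not be assessed.

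**Figure D2:**
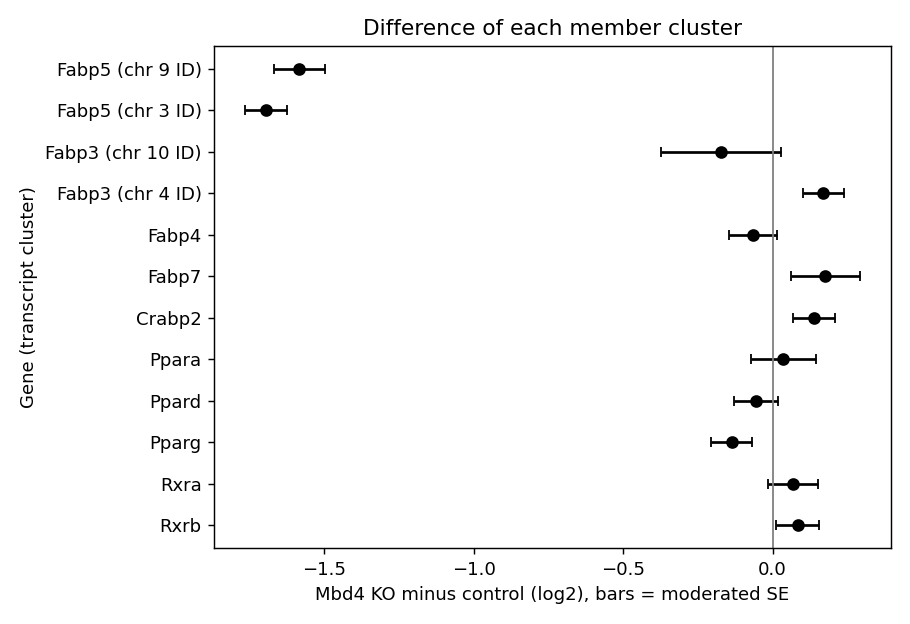
Difference of each of the 12 clusters, Mbd4 KO minus control on the log2 scale, with bars for limma's moderated SE. The Fabp5 clusters stand at -1.69 and -1.58, and the other 10 clusters between -0.17 and 0.18.

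The 5 receptors differed by between -0.14 and 0.08 between the groups. Ppard, which encodes the PPAR that FABP5 is known to serve, was at 9.85 and 9.82 in Mbd4 KO cells, against 9.83 and 9.95 in control cells. The groups overlapped and the difference was -0.05 (SE 0.073), less than the gap between the control arrays, and 0.0036 without control replicate 2. Ppara, the PPAR of fatty acid oxidation in liver, was at 5.84 and 5.53 in Mbd4 KO cells, against 5.63 and 5.67 in control cells, with both control values inside the Mbd4 KO range and a difference of 0.04 (SE 0.11), which was -0.11 without Mbd4 KO replicate 1. Pparg, the PPAR of adipocyte differentiation, was at 5.91 and 5.89 in Mbd4 KO cells, against 6.00 and 6.07 in control cells. Both of its Mbd4 KO arrays were below the control arrays, with a difference of -0.14 (SE 0.069).

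Rxra, a common heterodimer partner of PPARs, was at 8.93 and 9.11 in Mbd4 KO cells, against 8.94 and 8.95 in control cells, a difference of 0.07 (SE 0.084) with overlap, which was -0.02 without Mbd4 KO replicate 2 and 0.16 without Mbd4 KO replicate 1. Rxrb, a further partner, was at 9.11 and 9.21 in Mbd4 KO cells, against 9.08 and 9.06 in control cells. The groups of Rxrb did not overlap, but the difference of 0.08 (SE 0.072) was close to the SE, and it was 0.03 without Mbd4 KO replicate 2. Ppard, Rxra and Rxrb were above the array median on all 4 arrays, while Ppara and Pparg were below it on all 4. With 2 arrays a group, differences of this size do not show that the receptors were equal.

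PPAR and RXR dimers recognise repeats of the half-site AGGTCA, so the members' own promoters were searched for it. RefSeq's promoter table (GRCm38.p6, 250 bases before to 50 after a start) matched 7 of the 10 genes with 11 promoters, and Fabp5, Fabp4 and Crabp2 were not matched. The half-site, on either strand (AGGTCA or TGACCT), was in 4 of the 11 promoters, beside 16.3% of all 32851 promoters. The 5 matches are shown because they are the member sequences that hold the letters these receptors read. Each is printed on the gene's strand, here the plus strand, with the half-site in capitals:
Fabp7, chr10:57784742-57784767: gggaggatctTGACCTactccgctaa
Pparg, first start, chr6:115361106-115361131: ccgccgcctcAGGTCAgagtcgcccc
Pparg, second start, chr6:115362330-115362355: ggacgcgaggAGGTCAagaaggggcc
Rxra, second start, chr2:27709195-27709220: gaaatgggtgTGACCTgagtaatggt
Rxra, second start, chr2:27709234-27709259: gtggcaggaaAGGTCAgtcactctct
The half-sites began 171, 28, 9, 87 and 48 bases before the start, in this order. The DR1 element, 2 copies of AGGTCA in the same direction with a single base between them, on either strand and containing the half-site, was in 0 of the 11 promoters and in 0.0396% of all promoters. A match is a description of letters and not a binding site. The CpG count of these promoters ran from 1 (second start of Rxra) to 55 (first start of Rxra), beside a median of 7 over all promoters, and methylation was not measured in these samples. The array gives a single value per gene for Pparg, Rxra and Rxrb, so their starts cannot be told apart.

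Next to Fabp5 on chromosome 3 lies a row of its relatives, in the order Pmp2, Fabp9, Fabp4 and Fabp12. Pmp2, the myelin form, was at 5.26 and 5.46 in Mbd4 KO cells, against 5.41 and 5.30 in control cells, and Fabp9, the testis form, was at 5.07 and 5.12, against 4.87 and 5.20 in control cells. Their differences were 0.00 and 0.06, beside -0.06 for Fabp4, and the groups overlapped in these 3 nearest genes of that side. On the other side lie Pag1, an adaptor that recruits Csk to membrane rafts (0.02), then Zfp704 (-0.07) and Zbtb10, a zinc-finger gene. Zbtb10 was at 7.97 and 8.12 in Mbd4 KO cells, against 7.70 and 7.63 in control cells, the opposite direction to Fabp5, and its difference of 0.38 (SE 0.082) did not pass limma (adjusted p = 0.111). Among 19 measured genes within 10 places of Fabp5, differences ran from -0.22 to 0.38 with a median of 0.00. The cluster used for Tpd52 (-0.11) is numbered far from those of the other neighbours, and whether it reads Tpd52 itself was not tested. Limma called 0 of the 19, and 2 had an unadjusted p under 0.05, beside 3013 of all 21789 clusters.

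**Figure D3:**
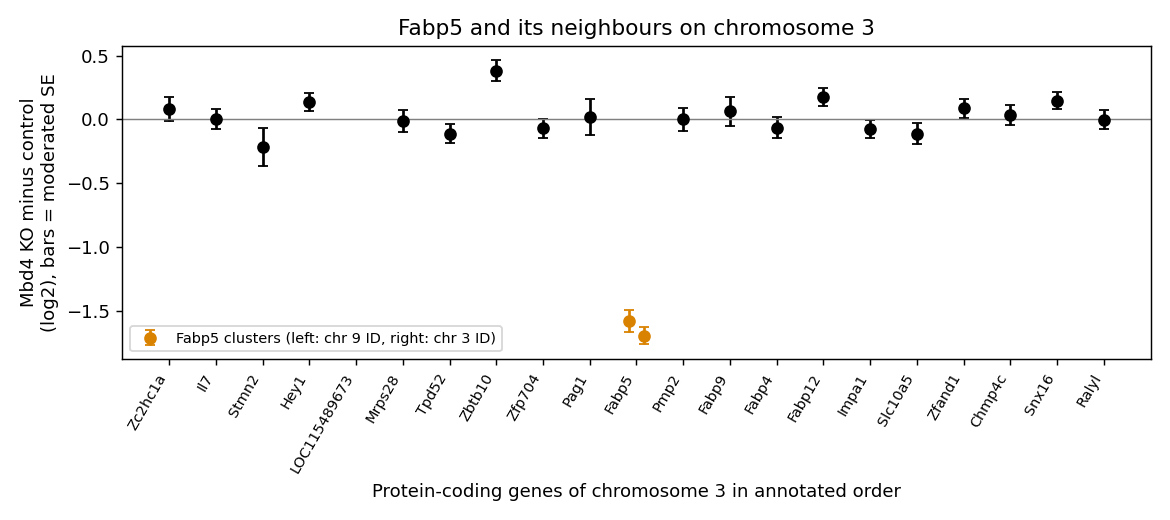
Difference, Mbd4 KO minus control on the log2 scale, for Fabp5 (both clusters) and the 10 protein-coding genes on each side of it in annotated order, with bars for the moderated SE; a gene without a point was not analysed here. Fabp5 stands at -1.58 and -1.69, and its 19 measured neighbours lie between -0.22 and 0.38.

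Genes downstream of or alongside these receptors were examined in 7 lists, which hold 125 measured genes, each counted once. Of the 125, limma called 1 higher and 1 lower over all genes, where 0.451% of all genes were called higher and 0.923% lower. Of the 125 differences, 82 were above zero with a median of 0.05, beside 11549 of 19938 genes and a median of 0.02 over the whole table.

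Cd36, the fatty acid translocase gene and a classical PPAR target, fell in Mbd4 KO cells. It was at 10.29 and 10.24 in Mbd4 KO cells, against 10.98 and 10.91 in control cells. The groups were well apart, with means of 10.27 ± 0.034 in Mbd4 KO cells and 10.94 ± 0.054 in control cells (SD, n = 2 each). That is a difference of -0.68 (SE 0.070), 1.60-fold lower, with a limma adjusted p of 0.0144. The call was lost with any 1 array left out, where calls over the whole table also fell, and the difference ran from -0.71 to -0.64. It was also lost when limma was run on all clusters of the table (adjusted p = 0.134). The call was kept in 6 of 11 alternatives, among them the replicate block (limma adjusted p = 0.0315). Cd36 was 1 of 34 measured genes in the list of PPAR targets (19 of 34 above zero, median 0.03, or 0.06 without Mbd4 KO replicate 1). The next largest difference there was that of Angptl4, a lipoprotein lipase inhibitor gene induced by PPARs and by fasting, at 0.36 (limma adjusted p = 0.15), opposite in sign to Cd36. Cd36 was also the 1 call among 18 genes of fatty acid uptake and activation (8 above zero, median -0.01, or 0.03 without Mbd4 KO replicate 1), followed by Dgat2, a triglyceride synthesis gene, at -0.37 (limma adjusted p = 0.152).

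Apoe, the apolipoprotein E gene and a target of the oxysterol receptors (LXRs), which also pair with RXRs, rose in Mbd4 KO cells. It was at 11.45 and 11.50 in Mbd4 KO cells, against 11.04 and 10.94 in control cells, so the groups did not overlap. The means were 11.47 ± 0.042 in Mbd4 KO cells and 10.99 ± 0.070 in control cells (SD, n = 2 each), a difference of 0.48 (SE 0.073), 1.40-fold, with a limma adjusted p of 0.0451. Leaving out any 1 array ended this call too, while the difference ran from 0.44 to 0.53. The replicate block (limma adjusted p = 0.0892) and running limma on all clusters of the table (adjusted p = 0.194) ended it as well. The call was kept in 5 of 11 alternatives. Of the 12 LXR targets 10 were above zero, with a median of 0.05. Abca1, the cholesterol efflux transporter gene, had the second largest difference, 0.32 (limma adjusted p = 0.301), which was 0.16 without Mbd4 KO replicate 2 and 0.48 without Mbd4 KO replicate 1.

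**Figure D4:**
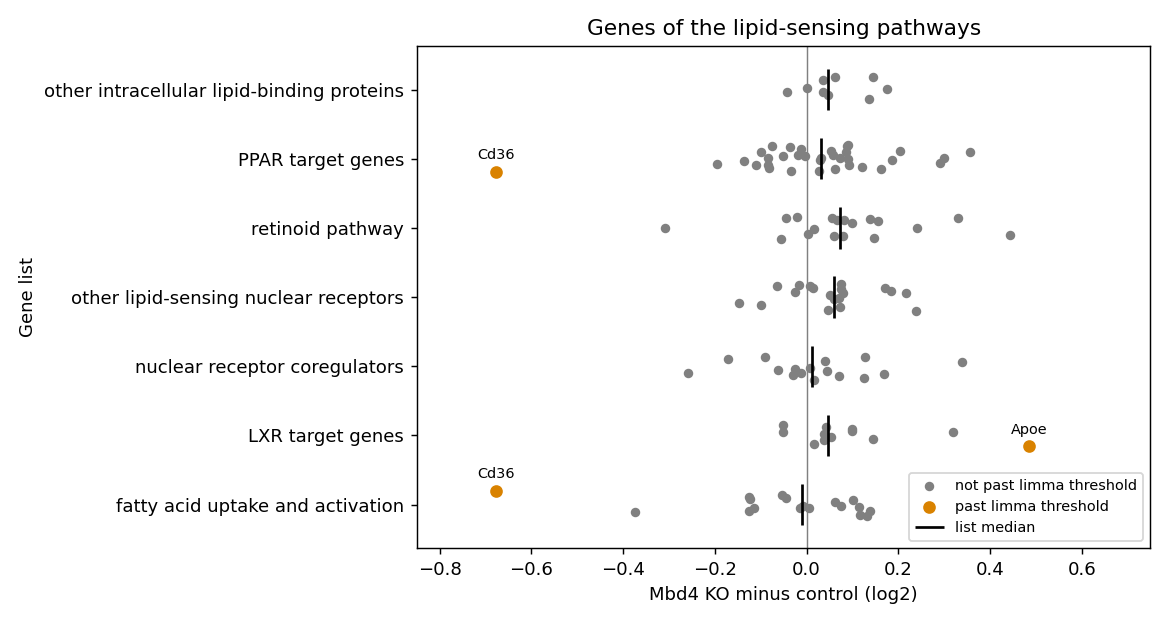
Difference, Mbd4 KO minus control on the log2 scale, of each measured gene in the 7 lists (1 point per gene, black line at the list median). Cd36 (-0.68, in both lists that hold it) and Apoe (0.48) are the genes past limma's threshold.

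In the other 4 lists limma called 0 genes. Among 18 genes of the retinoid pathway, 14 were above zero with a median of 0.07, and 4 had an unadjusted limma p under 0.05. Over the whole table, 3013 of 21789 clusters had such a p. In the lists of PPAR targets, LXR targets and fatty acid uptake the counts were 6 of 34, 2 of 12 and 2 of 18. Hadhb (-0.20), a chromosome 5 gene with 2 clusters, was among the 6 PPAR targets. The cluster used for it is numbered between those of Dhrs9 and Slc27a2, both of chromosome 2. Whether this cluster reads Hadhb itself was not tested. Rarg, a retinoic acid receptor gene, was at 7.25 and 7.20 in Mbd4 KO cells, against 6.88 and 6.68 in control cells, a difference of 0.44 (limma adjusted p = 0.0935). Both control values of Rarg were below the array median. Cyp26a1, which encodes a retinoic acid-degrading enzyme, differed by 0.33 (limma adjusted p = 0.101). Of the 18 retinoid genes, 11 were below the array median on all 4 arrays, Cyp26a1 among them, where signal over background could not be assessed. Among 19 other lipid-sensing or related receptors 14 were above zero, with a median of 0.06 and 3 unadjusted limma p under 0.05. Of these 19, 11 were below the array median on all 4 arrays. The largest differences there were those of Nr1d1 (0.24) and Nr1d2 (0.22), the haem-binding REV-ERB genes of the circadian clock, and that of Nr1d2 was 0.12 without Mbd4 KO replicate 2.

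Of 16 receptor coregulators 9 were above zero, with a median of 0.01. An unadjusted limma p under 0.05 was found for 3 of them, beside 3013 of all 21789 clusters. Lpin1, a phosphatidate phosphatase gene whose product also coactivates PPAR-alpha, differed by 0.34 (limma adjusted p = 0.251; 0.19 on the log2 scale without control replicate 1) and the acetyltransferase gene Crebbp by -0.26 (limma adjusted p = 0.2). Of 9 other intracellular lipid-binding proteins 8 were above zero, with a median of 0.05, but 8 of the 9 were also below the array median on every array. The largest were Fabp12 (0.18) and Fabp2, the intestinal form (0.14), and 1 of the 9 had an unadjusted limma p under 0.05.

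The clusters whose profile over the 4 arrays was most like that of the chromosome 9 Fabp5 cluster, the one with the highest mean, were found by the root mean square difference of values centred on their own mean, and are a description over 4 arrays. The nearest was Gpr15, a chemoattractant receptor gene of lymphocytes on chromosome 16 (0.067 log2 units away). It was at 5.91 and 5.96 in Mbd4 KO cells, against 7.45 and 7.37 in control cells. The other cluster of Fabp5 came second (0.071). After it came 1 cluster of Adgrl2, a latrophilin adhesion receptor gene that like Fabp5 lies on chromosome 3 (0.10), Gimap3, a lymphocyte GTPase gene on chromosome 6 (0.12), and Usp44, a deubiquitinase gene on chromosome 10 (0.13). Gimap3 was at 5.58 and 5.56 in Mbd4 KO cells, against 7.40 and 7.34 in control cells, and Usp44 at 5.52 and 5.64, against 7.38 and 7.37 in control cells. Unlike Fabp5, the genes Gpr15, Gimap3 and Usp44 were below the array median in Mbd4 KO cells. Their fall could be cut short there, since signal over background could not be assessed. All 5 clusters found have Mbd4 KO arrays below the control arrays by more than 1.4 on the log2 scale. They were picked for closeness to a Fabp5 cluster, so this fall follows from the selection and is no further result.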

How the data were processed

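Per the submitters' processing notes, the authors used RMA, and the deposited log2 values hold 1 number for each transcript cluster on each array. The RMA version and parameters were not given in the sources used here. In the platform's gene table, whose names may be outdated, 21789 of 35556 clusters had 1 symbol, 1621 had several and 12146 had none in it. Clusters with 1 symbol were fitted in R 4.3.3 by limma 3.58.1 (lmFit and eBayes, no trend, two-sided, 2 residual and 4.00 prior degrees of freedom), with no filter and Benjamini-Hochberg adjustment over all of them at 0.05. With 2 arrays a group the precision is low, and for a single value the exact permutation test (two-sided) has a smallest p of 0.333. The procedure was tested on simulated data drawn from limma's own fitted model, with normal errors and independent arrays. That test cannot show how the procedure behaves where real arrays depart from this model.

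The members and gene lists were chosen with earlier results of these data known. A gene with several clusters entered a list by the cluster with the highest mean. Named were all member clusters, called list genes, the 2 largest differences of each list, 3 neighbours of Fabp5 on each side, 5 like profiles and Mbd4. Listed genes not paired with a cluster of their own, 11 of 136 in the pathway lists, were not analysed here. Alternatives were leaving out each array, a replicate block, an intensity trend, a robust prior, cyclic loess or quantile normalization, the whole table, the table without its dimmest 30% and, for the lists, the mean of a gene's clusters. Figures were drawn with matplotlib 3.10.9.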

Additional observations from a re-analysis of the deposited data

How the results depend on the processing

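The Fabp5 differences ran from -1.74 to -1.65 (chromosome 3 cluster) and from -1.68 to -1.49 (chromosome 9 cluster) over 11 alternatives. With all clusters tested, limma's count of member clusters called lower was 1, a count from the comparison that chose Fabp5 and no test of it. Over the table, 94 higher and 208 lower calls became 45 and 114 with a replicate block, 398 and 723 with an intensity trend, 224 and 416 without the dimmest 30%, and 5 and 17 with all clusters; with 1 array left out they were 17 to 22 and 46 to 54. Same-numbered arrays deviated from their group means with a correlation of 0.0831 across clusters, so the numbers are not taken as pairs. Of the pathway genes, 0 were called higher with the replicate block, where Apoe had a limma adjusted p of 0.0892, and 1 lower. The counts were 3 and 3 with the trend, where limma also called Angptl4, Crebbp, Dgat2 and Rarg. They were 2 higher without the dimmest 30% (Rarg added) and 0 and 0 with all clusters or with any 1 array left out. With 1 array left out, list medians ran from 0.0407 to 0.108 (other lipid-binding proteins; 0.0863 without the dimmest 30%), 0.0168 to 0.0623 (PPAR targets), 0.0347 to 0.0886 (retinoid pathway), 0.0235 to 0.0483 (other receptors), -0.0135 to 0.0288 (coregulators), 0.0347 to 0.0807 (LXR targets) and -0.0387 to 0.0313 (fatty acid uptake), so the medians of the coregulators and of fatty acid uptake changed sign. The cause of these shifts was not tested. Signal over background is unknown, which limits the dim clusters.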
